A study of Mus musculus with 6 samples.

Results

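Genes of tight junctions, cell polarity and the epithelial programme were followed in R1 mouse embryonic stem cells, an established line of pluripotent cells. The 42 genes were chosen by name (claudins, junction scaffolds, desmosome proteins, keratins, polarity proteins and the Grhl and Ovol transcription factors), and all 42 had a row among the 51912 genes of the table. Pals1 was found under its other symbol, Mpp5. Cells had been kept in 2iLIF, a medium that holds the naive state, and were then given 100 ng/ml FGF2 in N2B27, a serum-free medium, for 24 h or for 48 h, with 3 replicates at each time. Both groups received FGF2. Cells in the starting medium, or without FGF2, were not analysed here, so the 48 h to 24 h difference cannot be told apart into effects of FGF2, of the medium and of time. The labels do not say whether replicates were separate cultures, so p-values measure the spread between these libraries, which may be technical.

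Epithelial cells seal the space between them with tight junctions, whose strands are made of claudins and are tied to actin by cytoplasmic scaffolds. Desmosomes couple neighbouring cells to keratin filaments, and 3 sets of polarity proteins (the Par, Crumbs and Scribble groups) keep the apical and basolateral membranes apart. Grhl transcription factors bind and activate genes of epithelial junctions, and Ovol factors hold mesenchymal genes down. Embryonic stem cells are themselves epithelial in part: they form colonies joined by E-cadherin, and the epiblast of the embryo becomes a polarised epithelium around implantation.

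The libraries held between 19574969 and 23133148 estimated counts. The pluripotency factor Pou5f1 was at a mean of 1111 CPM at 24 h and 1058 CPM at 48 h (CPM, the usual scaling of counts to library size, here with TMM factors), and Nanog at 695 and 174 CPM. Among 37 of the 42 genes with enough counts to be tested, 28 changed (edgeR's quasi-likelihood test, adjusted p under 0.05), which is 75.7%, against 62.8% of the 14889 genes tested in all. Of these, 13 were higher at 48 h (35.1% of the tested members, against 30.9% of all genes) and 15 were lower (40.5%, against 31.9%). Called changes of at least 2-fold were found for 11 members, 29.7% of those tested, against 11.2% of all genes. The groups did not overlap for 30 members (81.1%, against 66.9%). The median log2 change of the tested members was -0.04, against -0.01 for all genes, while the median size of the change was 0.59, against 0.27. Members thus moved in both directions. The members were chosen with earlier results of these data known, and no test was made of whether they differ from other genes.

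**Figure D1:**
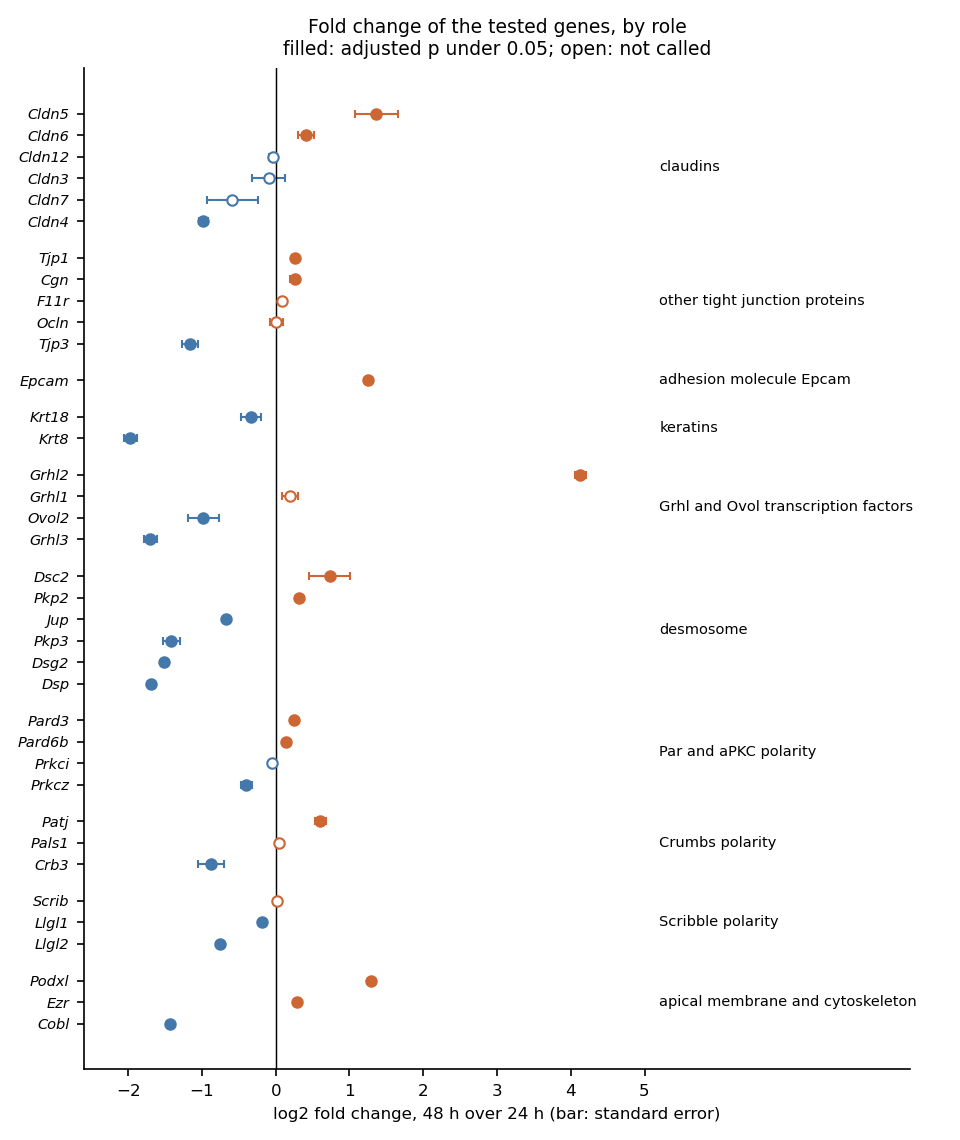
Log2 fold change (48 h over 24 h, x axis) of the 37 tested genes, grouped by role, with the standard error as a bar. Filled points passed an adjusted p of 0.05 and open points did not; Grhl2 stands at 4.13 on the right and Krt8 at -1.97 on the left.

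The promoter search covered 32851 RefSeq windows (GRCm38.p6, 250 bases before to 50 bases after an annotated start), which may not be all of them. Of the 42 genes, 30 had a window in this set. They had 43 windows in all, since some genes have several starts, whose windows can overlap. Those of 5 genes on which the results turn are shown because 2 of them belong to neighbouring keratin genes that moved by different amounts, and the others to a transcription factor (Grhl3), a claudin (Cldn4) and an adhesion molecule (Epcam) that changed. Grhl2, Dsc2 and Dsg2 were among the genes with no window in the set. All windows on the chromosome that carries Dsc2 and Dsg2 were left out before the search, which accounts for these genes. For Grhl2 and the other genes without a window, the absence does not show that RefSeq has none. Capitals mark CAGGTG, the E-box that Zeb and Snail repressors bind, and GGGCGG, the GC box that Sp and Klf factors bind, each on either strand. Each sequence reads 5′ to 3′ in the direction of its gene.
Grhl3, chr4:135573583-135573882, minus strand: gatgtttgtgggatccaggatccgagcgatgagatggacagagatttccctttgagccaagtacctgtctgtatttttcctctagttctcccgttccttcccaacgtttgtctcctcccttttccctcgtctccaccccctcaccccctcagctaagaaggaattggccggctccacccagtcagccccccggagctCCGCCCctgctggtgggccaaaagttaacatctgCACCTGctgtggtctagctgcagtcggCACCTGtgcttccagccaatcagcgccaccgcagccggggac
Epcam, chr17:87635729-87636028, plus strand: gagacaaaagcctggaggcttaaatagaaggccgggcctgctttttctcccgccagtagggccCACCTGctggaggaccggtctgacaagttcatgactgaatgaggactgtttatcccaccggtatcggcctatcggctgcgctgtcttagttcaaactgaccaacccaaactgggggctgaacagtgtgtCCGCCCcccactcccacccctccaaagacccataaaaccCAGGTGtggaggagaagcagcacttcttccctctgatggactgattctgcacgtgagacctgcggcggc
Cldn4, chr5:134946885-134947184, minus strand: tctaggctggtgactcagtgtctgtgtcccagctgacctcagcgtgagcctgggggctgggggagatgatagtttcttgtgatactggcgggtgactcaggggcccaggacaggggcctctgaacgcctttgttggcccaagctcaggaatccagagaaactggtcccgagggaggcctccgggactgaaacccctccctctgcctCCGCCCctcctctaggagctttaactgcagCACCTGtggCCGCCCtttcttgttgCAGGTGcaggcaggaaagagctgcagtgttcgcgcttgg
Krt8, chr15:102004293-102004592, minus strand: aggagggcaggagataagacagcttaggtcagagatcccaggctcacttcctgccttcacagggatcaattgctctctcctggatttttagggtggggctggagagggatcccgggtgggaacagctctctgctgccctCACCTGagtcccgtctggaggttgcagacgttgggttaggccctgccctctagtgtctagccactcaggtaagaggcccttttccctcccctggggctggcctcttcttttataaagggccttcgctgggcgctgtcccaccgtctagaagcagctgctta
Krt18, chr15:102027966-102028265, plus strand: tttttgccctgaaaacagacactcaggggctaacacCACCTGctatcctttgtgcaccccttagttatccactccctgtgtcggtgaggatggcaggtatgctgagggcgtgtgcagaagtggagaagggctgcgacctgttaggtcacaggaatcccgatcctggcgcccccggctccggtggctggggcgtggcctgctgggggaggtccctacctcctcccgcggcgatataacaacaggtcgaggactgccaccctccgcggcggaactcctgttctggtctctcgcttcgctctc

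In these windows the E-box letters begin 19 bases before the start of Grhl3, with another match beginning at base 9 of its transcript, and 187 and 19 bases before that of Epcam. Cldn4 holds them 14 bases before the start and again from base 12 of the transcript. Krt8 and Krt18 each hold 1 match, 111 and 214 bases before the start. Across the members with a window, 23 of 43 windows held CAGGTG, from 19 of the 30 genes. Cldn3, F11r and Ocln, which were not called, were among these genes, while Jup, Tjp1 and Ezr changed and had no match. The match was in 20.2% of the 32851 windows searched and in 19.7% of the 21262 among them from protein-coding genes. The GC box was found in 30 of 43 windows, from 26 genes, against 35.7% of the windows searched and 46.2% of those of protein-coding genes. The windows of Krt8 and Krt18 held no GC box. The full Grhl motif AACCGGTT was in 0 of the 43 windows, and in 0.146% of the windows searched. Its looser form AACCNGTT, searched on either strand, was in 2, against 2.09% of the windows searched. They belong to Cldn5, where it lies 20 bases before the start, and Cgn, where it lies 29 bases before it, here with 10 bases on each side and the match in capitals.
Cldn5: caaataggacAACAGGTTacttcagaac
Cgn: cctggggagtAACAGGTTggtgggcggg
Both carry the same 8 letters, which match the looser form when read on the opposite strand. A match is a description of the sequence only, since binding was not measured.

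The Grhl family exchanged its leading member. Grhl2 (ENSMUSG00000022286, chr15:37233036-37363569, plus strand), which drives epithelial genes in the neural tube, lung and other epithelia, stood at 4.56, 5.18 and 3.35 CPM in the 24 h libraries and at 74.4, 74.5 and 77.9 CPM in the 48 h libraries. All 48 h values lie far above all 24 h values, a 17.5-fold rise (log2 change 48 h over 24 h of 4.13 ± 0.08, where ± is the standard error in all values of this kind; adjusted p = 9.42e-17). Grhl3 (ENSMUSG00000037188, chr4:135541888-135573630, minus strand), best known for the closing of the neural tube and the skin barrier, went the other way. Its values were 26.8, 24.1 and 28.7 CPM at 24 h and 7.82, 7.95 and 8.80 CPM at 48 h, 3.25-fold lower (log2 change -1.70 ± 0.08, adjusted p = 1.9e-11). Grhl1, which acts in the epidermis and on desmosomal cadherin genes, was at 5.73 ± 0.52 and 6.55 ± 0.53 CPM (SD, n = 3), with overlapping groups, and was not called (log2 change 0.20 ± 0.11, adjusted p = 0.133).

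The summed CPM of the 3 Grhl genes went from 36.7 ± 1.76 to 90.3 ± 2.82 (SD, n = 3), a ratio of 2.46. Per kilobase of merged exons, Grhl3 supplied 86.0% ± 1.83 of the family's counts at 24 h and 22.8% ± 0.63 at 48 h. Grhl2 supplied 4.63% ± 1.28 and 68.1% ± 0.85. The share of Grhl1 was 9.36% ± 0.76 and 9.17% ± 0.61, values that overlap, whereas by counts alone, without length, its share went from 15.6% ± 1.01 to 7.25% ± 0.50. The shares of Grhl2 and of Grhl3 lay apart at the 2 times (exact permutation over libraries, two-sided, p = 0.1, the smallest that 3 against 3 allow, and 0.152 after adjustment over all shares). Per length, then, Grhl3 was the most abundant of the family at 24 h and Grhl2 at 48 h, in every library. The plot of family shares shows this turn beside 6 other families.

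**Figure D2:**
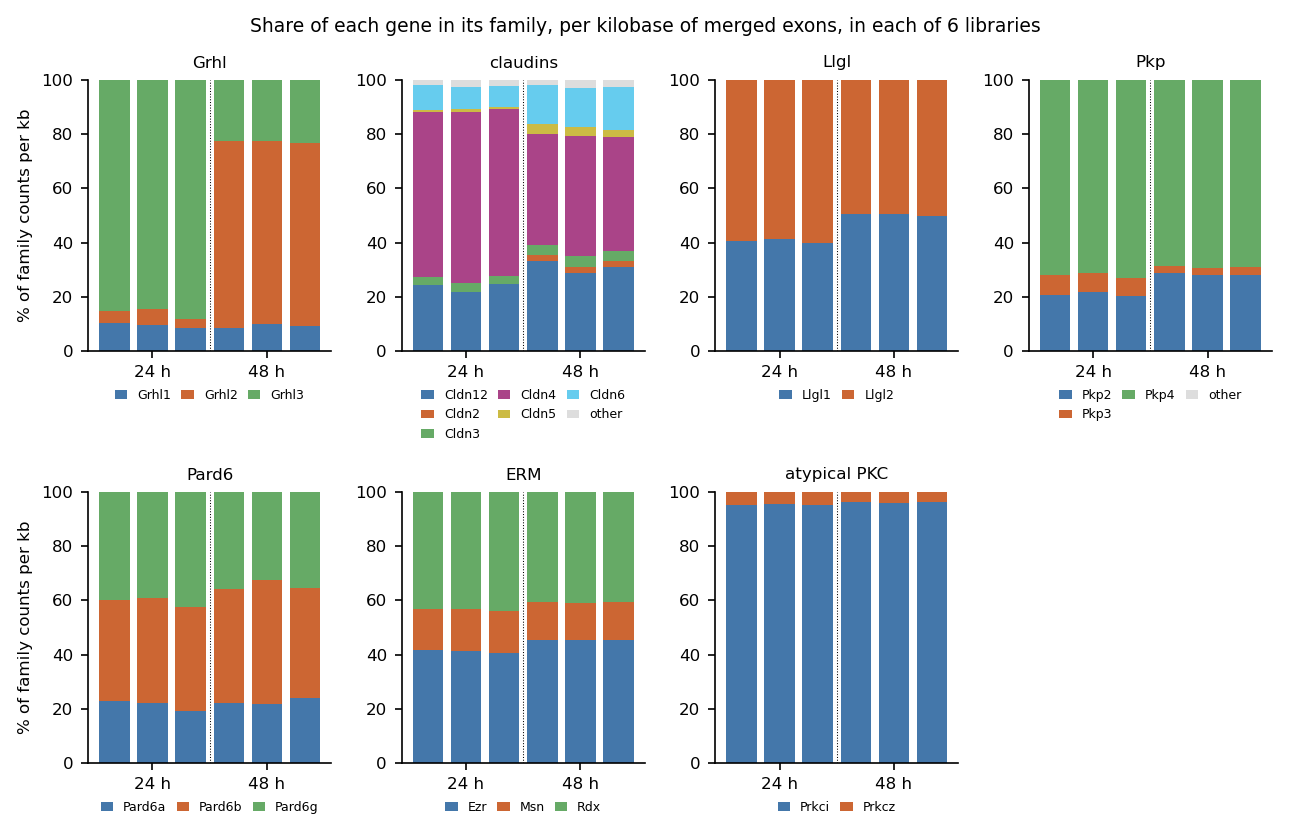
Share (%, y axis) of each gene in the summed counts per kilobase of its family, in each of the 3 libraries at 24 h and 3 at 48 h (bars). Grhl2 goes from 4.63% to 68.1% on average and Cldn4 from 61.8% to 42.3%, while Prkci holds more than 95% of the atypical PKC counts in every library.

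Ovol2, a zinc finger factor that keeps cells epithelial by repressing Zeb genes, fell from 2.38 ± 0.24 to 1.20 ± 0.19 CPM (SD, n = 3; log2 change -0.98 ± 0.21, adjusted p = 0.000583). The libraries held 47 to 53 counts of it at 24 h and 23 to 31 at 48 h, and the groups did not overlap. Ovol1, its relative, had 4 to 14 counts and was not tested. Of the mesenchymal regulators listed for comparison, Zeb2 rose from 1.33 ± 0.22 to 10.7 ± 0.89 CPM (log2 change 2.99, adjusted p = 9.62e-12), Zeb1 rose by 0.29 and Twist1 by 0.73 on the log2 scale, and Snai1 fell by 0.74. That list of 8 genes also holds Vim and Cdh2, which are not regulators. Of its 7 tested genes 4 rose and 2 fell, where 30.9% and 31.9% of all tested genes did so. Its summed level was 157 to 176 CPM at 24 h and 172 to 177 CPM at 48 h, most of it from Vim. Vim itself fell, from 116 ± 8.43 to 94.9 ± 1.44 CPM (log2 change -0.30, adjusted p = 8.59e-06).

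Of the 8 claudins, 6 were tested, 2 rose and 1 fell, so that 50% were called against 62.8% of all genes (30.9% higher, 31.9% lower). Cldn4 (ENSMUSG00000047501, chr5:134945119-134946934, minus strand), a barrier claudin of simple epithelia, was at 43.6, 44.8 and 41.9 CPM at 24 h and at 20.6, 24.3 and 21.1 CPM at 48 h. Every 48 h value is below every 24 h value (log2 change -0.98 ± 0.06, adjusted p = 2.07e-10), a 1.97-fold fall. Cldn6, a claudin of embryonic epithelia and pluripotent cells, rose from 5.51 ± 0.60 to 7.31 ± 0.43 CPM (log2 change 0.41 ± 0.11, adjusted p = 0.00353). Cldn5, the main claudin of endothelium, rose from 0.52 ± 0.09 to 1.34 ± 0.19 CPM (log2 change 1.36 ± 0.29, adjusted p = 0.000683), on 10 to 12 counts at 24 h and 25 to 32 at 48 h. The 7 endothelial markers, Cldn5 among them, summed to 82.0 to 87.5 CPM at 24 h and 44.9 to 48.1 CPM at 48 h, mostly Pecam1, which pluripotent cells also express. Tek was at 5.97 and 6.65 CPM and was not called (adjusted p = 0.282), and Kdr fell from 1.44 to 0.41 CPM (adjusted p = 5.05e-05). Cdh5, Tie1 and Emcn stayed below 1 CPM in every library.

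Cldn12, an unusual claudin that lacks the tail by which others bind scaffolds, was at 38.3 ± 2.38 and 37.3 ± 1.54 CPM (SD, n = 3) and was not called (log2 change -0.04 ± 0.05, adjusted p = 0.554). Cldn3 was at 1.5 ± 0.08 and 1.40 ± 0.14 CPM and Cldn7 at 0.94 ± 0.09 and 0.62 ± 0.26 CPM, neither called (adjusted p = 0.717 and 0.146). Cldn1 had 0 to 2 counts and Cldn9 had 4 to 8 in a library, below what the test needs.

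Per kilobase the order of the claudins was the same at both times for the leading 3. At 24 h Cldn4 was at 23.9 CPM per kilobase, Cldn12 at 9.05 and Cldn6 at 3.20, and at 48 h they were at 12.1, 8.83 and 4.25. The distance between Cldn4 and Cldn12 thus narrowed. The share of Cldn4 in all 22 claudins listed went from 61.8% ± 1.27 to 42.3% ± 1.76 of the counts per kilobase (SD, n = 3), that of Cldn12 from 23.4% ± 1.57 to 31.0% ± 2.21, and that of Cldn6 from 8.27% ± 0.69 to 14.9% ± 0.81. None of these 3 pairs of groups overlapped (two-sided exact permutation p = 0.1 for each, the smallest possible). Counted without length, Cldn4 and Cldn12 changed places, since Cldn4 held 47.6% ± 1.75 at 24 h and 30.2% ± 1.93 at 48 h, and Cldn12 held 41.9% ± 2.16 and 51.4% ± 2.53. Summed over the 22 claudins, the level went from 91.2 ± 2.44 to 72.7 ± 2.37 CPM (SD, n = 3), a ratio of 0.796.

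Cldn4 and Cldn3 are neighbours on chromosome 5, 39279 bases apart and on opposite strands. Cldn6 and Cldn9 lie 137 bases apart on chromosome 17, also on opposite strands. In the first pair 1 gene fell and the other was not called, and in the second 1 rose and the other was too low to test.

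The 5 scaffolds and other membrane proteins of the tight junction had a median change of 0.26 in size on the log2 scale, against 0.27 for all tested genes. Of them 2 were higher (40%, against 30.9% of all genes), 1 was lower (20%, against 31.9%) and 2 were not called. The share called, 60% against 62.8%, is near the background. Tjp1, the scaffold that ties claudins to actin, rose from 256 ± 2.36 to 307 ± 6.27 CPM (SD, n = 3), 1.20-fold (log2 change 0.26 ± 0.02, adjusted p = 1.02e-08). Its relative Tjp3 was 12.7, 11.5 and 10.6 CPM at 24 h and 5.02, 4.52 and 5.95 CPM at 48 h, 2.23-fold lower with no overlap (log2 change -1.16 ± 0.11, adjusted p = 1.2e-07). Cgn, which links the junction to actomyosin, rose 1.19-fold (log2 change 0.26 ± 0.06, adjusted p = 0.00182). Its counts were fractional, because RSEM divided some reads between genes. Ocln, a membrane protein of the strands, was at 11.6 ± 1.53 and 11.7 ± 0.40 CPM and F11r, a junctional adhesion molecule, at 41.4 ± 1.27 and 43.8 ± 0.62 CPM, neither called (adjusted p = 0.932 and 0.095).

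Epcam (ENSMUSG00000045394, chr17:87635979-87651129, plus strand) codes for an adhesion molecule of epithelia and pluripotent cells that binds and stabilises claudins. It was at 74.2, 72.7 and 67.1 CPM at 24 h and at 167, 170 and 169 CPM at 48 h, 2.37-fold higher with no overlap (log2 change 1.25 ± 0.03, adjusted p = 8.16e-15). Per kilobase it went from 32.5 to 76.9 CPM, which placed it beside Ezr (77.1) and Prkci (66.4) as the most abundant members per length at 48 h. E-cadherin (Cdh1), an adhesion gene of these cells that was picked after its values were seen, rose 1.07-fold, from 737 ± 8.98 to 786 CPM (log2 change 0.09, adjusted p = 7.95e-05), a call that was lost with library size as the only scaling (adjusted p = 0.0844).

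Krt8 and Krt18 code for the keratin pair that fills simple epithelia, where a filament takes both in equal parts. Krt8 (ENSMUSG00000049382, chr15:101996698-102004482, minus strand) was at 20.7, 20.4 and 20.9 CPM at 24 h and at 4.65, 5.44 and 5.68 CPM at 48 h. The groups are far apart, and the level fell 3.92-fold (log2 change -1.97 ± 0.09, adjusted p = 5.08e-12). Krt18 (ENSMUSG00000023043, chr15:102028180-102032027, plus strand), which lies 23697 bases away on the opposite strand, was at 3.95, 4.39 and 4.07 CPM at 24 h and at 3.59, 3.29 and 2.93 CPM at 48 h. Its fall was 1.27-fold (log2 change -0.34 ± 0.13, adjusted p = 0.037) and did not pass in 7 of 15 alternative fits, among them DESeq2 (adjusted p = 0.171) and those without any 1 of the 24 h libraries (from 0.0502 to 0.106), without replicate 2 of 48 h (0.0701) or without replicate 3 of 48 h (0.139).

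Each library held 5.23, 4.63 and 5.14 counts of Krt8 for each count of Krt18 at 24 h, and 1.29, 1.65 and 1.94 at 48 h. The ratio thus went from 5.0 ± 0.32 to 1.63 ± 0.32 (SD, n = 3), with no overlap (two-sided exact permutation p = 0.1, the smallest possible). Per kilobase of merged exons it went from 3.67 ± 0.24 to 1.20 ± 0.24. Krt7 (0 to 5 counts) and Krt19 (1 to 4 counts), keratins of trophoblast and ductal epithelia, were too low to test. Of 13 other keratins listed, 10 were too low to test, and Krt42, a type I keratin, fell from 8.61 ± 1.22 to 2.02 ± 0.23 CPM (log2 change -2.09, adjusted p = 1.61e-09).

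Of the 6 desmosome genes, 4 fell and 2 rose, where 31.9% and 30.9% of all tested genes did so, and the call of 1 of those that rose, Dsc2, was lost in 4 of 15 alternative fits. Dsp codes for desmoplakin, the plaque protein that holds keratin filaments. It was at 80.8, 70.7 and 78.6 CPM at 24 h and 23.5, 24.3 and 23.8 CPM at 48 h, 3.21-fold lower (log2 change -1.69 ± 0.05, adjusted p = 4.36e-14). The desmosomal cadherin Dsg2 fell from 91.9 ± 3.46 to 32.03 ± 0.35 CPM (SD, n = 3; log2 change -1.52 ± 0.04, adjusted p = 4.63e-15). Pkp3, a plaque armadillo protein of epithelial desmosomes, fell from 9.72 ± 0.70 to 3.63 ± 0.39 CPM (log2 change -1.42 ± 0.11, adjusted p = 1.05e-08). Jup (plakoglobin), which serves both desmosomes and adherens junctions, fell less, from 191 ± 6.68 to 120 ± 4.41 CPM, 1.6-fold.

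Another 2 genes of the desmosome rose. Pkp2, the plakophilin of simple epithelia and heart, went from 42.7 ± 1.62 to 53.2 ± 1.20 CPM (SD, n = 3; log2 change 0.32 ± 0.04, adjusted p = 3.52e-06). Per kilobase its share in the Pkp family went from 20.8% ± 0.82 to 28.2% ± 0.36 and that of Pkp3 from 7.01% ± 0.49 to 2.85% ± 0.25, while Pkp4, which was not among the 42, held the rest (72.2% and 69.0%). The cadherin Dsc2 was low, at 0.82 ± 0.12 and 1.35 ± 0.33 CPM on 16 to 38 counts. Its rise (log2 change 0.73 ± 0.28, adjusted p = 0.0314) did not pass without replicate 2 of 24 h (adjusted p = 0.0775), replicate 3 of 24 h (0.105) or replicate 2 of 48 h (0.171), nor in DESeq2 (0.103). Dsc2 and Dsg2 lie 498519 bases apart on chromosome 18, on opposite strands, and moved in opposite directions.

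**Figure D3:**
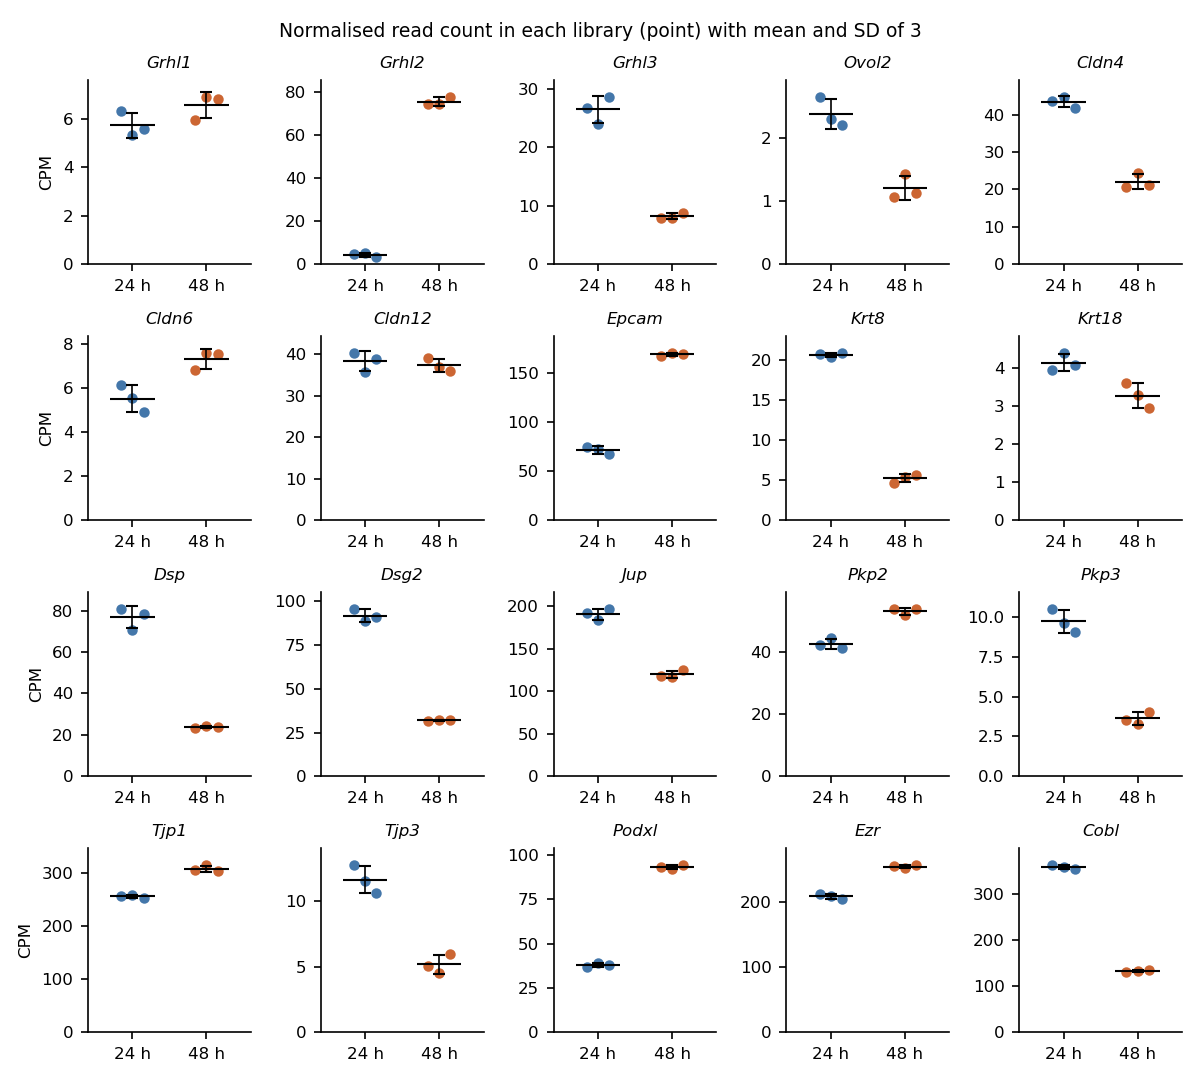
CPM (y axis, from 0) of 20 genes in each of 3 libraries at 24 h and 3 at 48 h (points), with the mean and SD. Grhl2, Epcam and Podxl are higher at 48 h, and Grhl3, Krt8, Dsp, Dsg2, Pkp3, Tjp3 and Cobl are lower, with no overlap; Cldn12 and Grhl1 overlap.

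The 10 polarity genes had a median change of 0.22 in size on the log2 scale, near the 0.27 of all tested genes. Of them 3 rose, 4 fell and 3 were not called, a share called of 70% against 62.8% of all genes, and 0 changed 2-fold, against 11.2% of all genes. These counts are near the background. In the Par group, Pard3, the scaffold that marks the apical junction, rose from 129 ± 3.48 to 153 ± 2.75 CPM (SD, n = 3; log2 change 0.25 ± 0.03, adjusted p = 5.52e-07). Pard6b, its partner that activates atypical PKC, went from 26.0 ± 0.57 to 28.81 ± 1.3 CPM (log2 change 0.15 ± 0.05, adjusted p = 0.021). That call was lost with library size as the only scaling (0.09, adjusted p = 0.161), in DESeq2 (adjusted p = 0.0846), and when either replicate 1 of 24 h (0.075) or replicate 2 of 48 h (0.0999) was left out.

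Of the 2 atypical PKC kinases, Prkci was at 381 ± 2.63 and 369 ± 11.5 CPM (SD, n = 3), with overlapping groups, and was not called (log2 change -0.05 ± 0.02, adjusted p = 0.0744). It passed without replicate 2 of 48 h (-0.07, adjusted p = 0.0221), with library size only (-0.11, adjusted p = 0.000373) and with all genes that had any count in the test (-0.05, adjusted p = 0.0427). Prkcz fell from 21.6 ± 0.81 to 16.4 ± 1.53 CPM (log2 change -0.40 ± 0.07, adjusted p = 0.000155), on fractional counts. Prkci supplied 95.2% ± 0.17 of the pair's counts per kilobase at 24 h and 96.2% ± 0.24 at 48 h.

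In the Crumbs group, Crb3, the small membrane protein that organises the apical surface, fell from 3.69 ± 0.34 to 2.01 ± 0.37 CPM (SD, n = 3; log2 change -0.88 ± 0.17, adjusted p = 0.000288). Patj, a many-domain scaffold of the same complex, rose from 9.39 ± 0.38 to 14.3 ± 0.42 CPM (log2 change 0.61 ± 0.08, adjusted p = 4.06e-06). Pals1, the adaptor between them, was at 55.4 ± 0.62 and 57.0 ± 2.21 CPM and was not called (adjusted p = 0.339).

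In the Scribble group, which defines the basolateral side, Llgl2 fell from 128 ± 1.66 to 75.7 ± 0.41 CPM (SD, n = 3; log2 change -0.76 ± 0.03, adjusted p = 4.7e-13) and Llgl1 from 87.6 ± 1.59 to 76.8 ± 1.45 CPM (log2 change -0.19 ± 0.03, adjusted p = 4.76e-05). Per kilobase Llgl2 was the more abundant at 24 h, with 59.4% ± 0.71 of the pair, and the 2 were near equal at 48 h, at 49.7% ± 0.37 for Llgl2. Scrib was at 112 ± 1.93 and 113 ± 3.63 CPM and was not called (adjusted p = 0.768).

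At the apical membrane, Podxl (ENSMUSG00000025608, chr6:31519488-31563981, minus strand), a sialomucin that lines the lumen of the epiblast, was at 37.1, 39.4 and 38.1 CPM at 24 h and 93.5, 92.4 and 94.4 CPM at 48 h. This is a 2.44-fold rise with no overlap (log2 change 1.29 ± 0.04, adjusted p = 9.8e-15). Ezr, which anchors Podxl and other membrane proteins to actin, rose from 208 ± 4.21 to 254 ± 2.35 CPM (SD, n = 3; log2 change 0.29 ± 0.02, adjusted p = 6.24e-09), and its share of the family of Ezr, Rdx and Msn went from 41.2% ± 0.49 to 45.5% ± 0.04 per kilobase. Cobl (ENSMUSG00000020173, chr11:12236608-12464960, minus strand), a nucleator of actin filaments, fell from 362, 357 and 354 CPM to 130, 132 and 134 CPM, 2.71-fold (log2 change -1.44 ± 0.02, adjusted p = 9.41e-18). Per kilobase Cobl went from 43.9 to 16.2 CPM, which was the highest level at both times among the 7 members that fell at least 2-fold.

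Other genes of these structures, taken from a list of 95, also moved in both directions. Of 57 tested, 19 rose and 23 fell (73.7% changed, against 62.8% of all genes); with DESeq2 18 rose and 18 fell. In the tight junction list 8 of 17 rose (47.1%, against 30.9%) and 5 fell (29.4%, against 31.9%). Cgnl1, the relative of Cgn, rose from 64.8 ± 3.07 to 212 ± 3.42 CPM (SD, n = 3; log2 change 1.71, adjusted p = 9.42e-17), and Lsr, Mpdz and Ybx3 rose by 0.77, 0.81 and 0.45 on this scale. Jam2, a relative of F11r, fell from 196 ± 13.8 to 30.0 ± 1.58 CPM (log2 change -2.71, adjusted p = 1.09e-16). Ildr1, a protein of the corners where 3 cells meet, fell 2.47-fold, while its relative in those corners, Lsr, was among those that rose.

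Of the wider polarity list 6 of 20 rose and 6 fell, 60% against 62.8% of all genes, with 0 changes of 2-fold, against 11.2%. Dlg5, a partner of the Scribble group, fell by 0.76, and Epb41l5, a regulator of the Crumbs complex, rose by 0.45. Among 12 tested genes of the wider epithelial list 4 rose (33.3%, against 30.9% of all genes) and 7 fell (58.3%, against 31.9%). Esrp1, which sets epithelial splicing, rose from 4.17 ± 0.58 to 24.2 ± 0.54 CPM (SD, n = 3; log2 change 2.54, adjusted p = 4.85e-13). Elf3, an epithelial Ets factor, fell from 24.1 ± 1.96 to 6.02 ± 0.50 CPM, and Spint1, an inhibitor of membrane proteases, from 72.0 ± 1.48 to 45.1 ± 1.01 CPM.

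**Figure D4:**
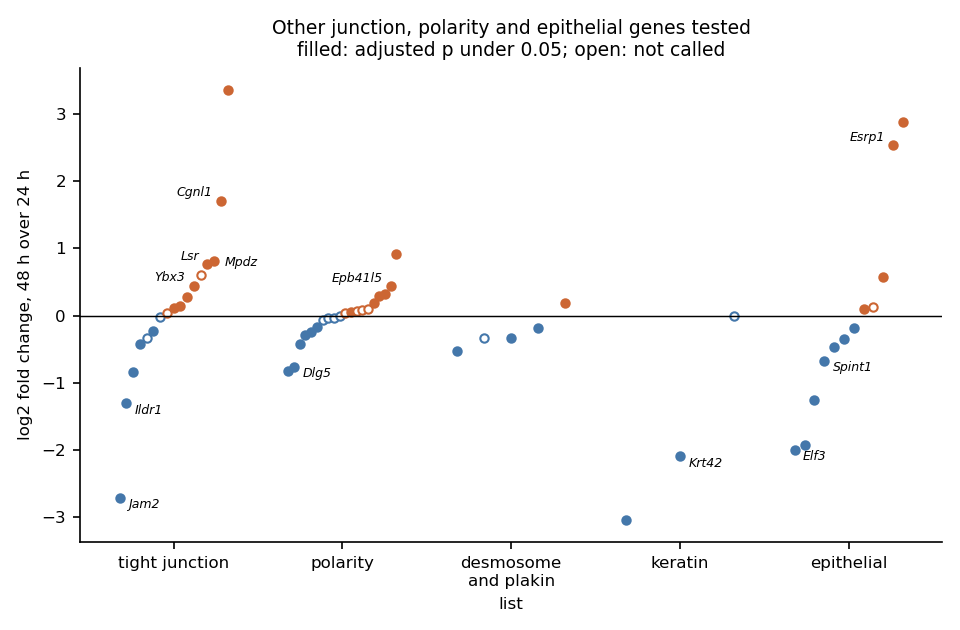
Log2 fold change (48 h over 24 h, y axis) of the 57 tested genes of the wider lists, by list (x axis). Filled points passed an adjusted p of 0.05 and open points did not; Esrp1 and Cgnl1 are high, Jam2, Krt42 and Elf3 low, and the polarity genes lie between -1 and 1.

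Markers of other cell types were read beside these values. The 9 trophoblast markers, a cell type that also uses Krt8 and Krt18, summed to 13.6 to 15.5 CPM at 24 h and 5.46 to 7.50 CPM at 48 h. Of the 5 tested, 0 rose and 2 fell (Tfap2c and Plet1), where 30.9% and 31.9% of all tested genes did so. Of the 9, 7 were below 1 CPM in every library, Cdx2, Elf5 and Hand1 included. The 8 primitive endoderm markers summed to 50 to 58.1 CPM at 24 h and 16.6 to 17.2 CPM at 48 h. Most of this was Lama1. Of the 4 tested, 0 rose and 2 fell, beside the same shares of all genes. These were Lama1 and Gata4, the second from 5.84 to 2.25 CPM (adjusted p = 4.89e-07). Dab2, at 2.83 and 2.52 CPM, was not called (adjusted p = 0.388). Of the 8 markers, 5 were below 1 CPM throughout, Gata6, Sox17 and Foxa2 included. Both sums were lower at 48 h, as were Krt8, Dsp, Dsg2 and Grhl3, and their part in those results was not tested. Of 7 surface ectoderm markers, 6 were below 1 CPM in every library, among them Trp63, Krt5 and Krt14, and the summed level, mostly Tfap2a, was 23.0 to 24.6 CPM at 24 h and 12.0 to 15.4 CPM at 48 h. The 8 fibroblast markers summed to 4.05 to 6.02 CPM and 3.13 to 4.47 CPM. Among the 4 tested, 1 was higher and 2 were lower, where 30.9% and 31.9% of all tested genes were. Dcn rose from 0 counts in each 24 h library to 23 to 32 at 48 h (adjusted p = 7.05e-07). Col1a1 fell from 1.03 to 0.30 CPM and Pdgfrb from 2.06 to 0.59 CPM. In bulk RNA, fewer cells of a type and less RNA per cell cannot be told apart. In GENCODE M21, 12 of the 42 genes share exonic bases with an antisense gene (Cldn3, Crb3, Dsg2, Dsp, Ezr, Grhl2, Krt7, Krt8, Llgl1, Ovol1, Ovol2 and Tjp3), and without strand-aware counting reads from the 2 cannot be told apart.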

How the data were processed

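Messenger RNA of 6 samples (3 at 24 h, 3 at 48 h) was compared. The authors deposited estimated counts per gene from RSEM, unscaled, with 1 column per sample. The submitters' processing notes name cutadapt 1.9.1, STAR 2.5.2, RSEM 1.3.0 and GRCm38. The annotation, strand setting and filters are not given in the sources used here. Symbols came from a table of gene names (51633 of 51912 identifiers matched). Replicates differed by more than counting noise (chi-square per degree of freedom 1.80 to 2.25).

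Estimated counts were rounded and filtered with filterByExpr (minimum count 10), for a tested set of 14889 genes. After TMM scaling the groups were compared with edgeR 4.0.16 (quasi-likelihood test, R 4.3.3, group as the only term), with Benjamini-Hochberg adjustment over all tested genes. The code was tested on simulated data. Standard errors are the log2 fold change divided by the root of F. Lengths are merged GENCODE M21 exons. Shares (38 above 0, in 8 families) were compared by exact permutation over libraries, where p = 0.1 is the smallest possible, with Benjamini-Hochberg adjustment. The motifs CAGGTG and GGGCGG were added after values were seen. Alternatives were other scalings and filters, DESeq2 1.42.0, limma voom (limma 3.58.1), unrounded counts, the replicate block, a threshold of 0.01 and leaving out each library.

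The members and lists were chosen with earlier results of these data known. Any member, marker or family paralog could be named, and of the wider list the 6 largest called changes in each direction with a mean of at least 5 CPM. Pou5f1, Nanog, Cdh1, Esrp2, Tmem54 and Krt17 were named outside that rule. The shares of 1 of the 8 families are not reported here.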

Additional observations from a re-analysis of the deposited data

How the results depend on the processing

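The count of 28 changed members was 25 with DESeq2 and with a threshold of 0.01, from 26 to 28 without 1 library, and 28 in the other fits. The median log2 fold change of the members was -0.10 with library size as the only scaling, which also moved the median of all genes from -0.01 to -0.07. In the wider list 15 genes rose and 26 fell with library size only, and 18 and 18 with DESeq2, against 19 and 23. Over all genes library size only gave 3779 higher and 5694 lower, against 4600 and 4745. Of 554 values of the 37 tested members over 15 alternatives, 529 kept direction and call, 15 lost the call (Krt18, Dsc2 and Pard6b), 3 gained it (Prkci) and 7 reversed. The reversals were of genes that no fit called. With library size only Ocln was at -0.05, Pals1 at -0.018 and Scrib at -0.049. Without 1 library Ocln ranged from -0.053 to 0.12 and Scrib from -0.007 to 0.038. The change in the Krt8 to Krt18 ratio, -3.37, ranged from -3.55 to -3.2 without 1 library. Between shares by counts and per kilobase, 8 of 19 differences between the times moved by more than the replicate SD. The TMM factors were 1.02 in each 24 h library and 0.98 in each 48 h library, and the fit with library size only leaves them out. Why the factors differ between the times was not tested. With the replicate block 28 members and 9235 genes changed, of which 9138 were shared with the fit without it, and 0 member calls differed. Deviations of same-numbered libraries correlated at -0.05, -0.04 and -0.01, so replicate numbers were not taken as pairs. Depth limits 5 members, which had at most 14 counts in a library. Cldn7 was not tested with at least 10 counts in every sample.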

Other observations

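Among the less abundant genes of the wider lists, several had large called changes, and 3 of these were chosen after their values were seen. Cldn2, a claudin that forms pores for cations in leaky epithelia, was at 0.25, 0.293 and 0.0424 CPM at 24 h and at 1.89, 1.92 and 2.17 CPM at 48 h (log2 change 3.37 ± 0.38, edgeR adjusted p = 9e-07). Tmem54 was at 0.35, 0.0488 and 0.127 CPM at 24 h and at 1.01, 1.42 and 1.49 CPM at 48 h (log2 change 2.88, adjusted p = 3.01e-05). Krt17, a keratin of stressed and basal epithelia, was at 3.0, 2.54 and 2.5 CPM at 24 h and at 0.276, 0.366 and 0.316 CPM at 48 h (log2 change -3.04, adjusted p = 3.86e-08). The groups do not overlap for any of the 3.

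The splicing regulators Esrp1 and Esrp2 (the second also chosen after its values were seen) moved in opposite directions, as Grhl2 and Grhl3 did. Esrp2 was at 5.31, 4.79 and 5.93 CPM at 24 h and at 2.44, 2.24 and 2.07 CPM at 48 h (log2 change -1.25 ± 0.14, adjusted p = 8.94e-07), against 4.36, 4.64 and 3.52 CPM and 24.8, 24.0 and 23.7 CPM for Esrp1. The neural cadherin Cdh2 rose from 8.93 ± 0.37 to 22.8 ± 0.91 CPM (SD, n = 3; log2 change 1.36, adjusted p = 6.83e-11), while Cdh1 stayed the more abundant per kilobase, at 161 and 172 CPM against 1.11 and 2.83 CPM for Cdh2.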
